A study of Arabidopsis thaliana with 12 samples.

Results

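The 78 array rows described here each list 2 or more genes and gave more signal in Arabidopsis thaliana treated with staurosporine and ascorbate than in plants kept in water. They are 78 of the 3439 rows of the table and 78 of the 870 rows for which the platform annotation lists several genes. A row was taken when it had no 0 on any array, a ratio of mean treated over mean water intensity of at least 1.5, and a treated intensity above the water intensity in all 6 pairs of arrays with the same replicate number. Of the 870 rows, 178 had a 0 on an array and 692 had none. Among those 692 rows, 111 reached the ratio, 28 of them were not higher in every pair, 83 met all conditions, and 5 of the 83 were left out. The rows were therefore selected on the deposited intensities of both groups, and treated against water is given for them as a description with no test.

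Total RNA of wild-type plants of the Columbia 0 ecotype was measured on 12 expression arrays. The 6 treated arrays came from plants exposed first to staurosporine at 2 µM over 4 h and next to ascorbate at 25 mM and pH 5.5 over another 4 h. The 6 water arrays came from plants held in water during 8 h. Neither compound was given alone and no group received a pH 5.5 solution without ascorbate, so the compounds, their order and the pH cannot be told apart. The labels name no tissue or age and do not say whether the replicates are separate plants or cultures, so a p-value here reflects only how much these arrays scatter, and that scatter may be technical. Array means lay between 0.857 and 1.04, and 10.3% to 15.2% of the rows of an array were at 0. The number of arrays limits the precision.

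Staurosporine blocks many protein kinases, the enzymes that attach phosphate to other proteins. Ascorbate is a main water-soluble antioxidant of plant cells and a substrate of the peroxidases that remove hydrogen peroxide. Many Arabidopsis genes belong to families that arose by duplication of the genome or of single genes, and the copies can be so alike in sequence that a DNA probe binds the transcripts of several of them. A row that lists several genes cannot tell which of them gave the signal. The annotation gives no reason for listing several genes on a row.

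The 78 rows list 185 genes, none of them on more than 1 of these rows, and all 185 were found in the RefSeq table of the TAIR10.1 assembly. That table gives a name beyond the locus tag to at least 1 gene of 10 rows. For the other 68 rows it gives locus tags only, so the label of paralog groups could not be checked for them and no family is stated. In 4 rows every gene carries a name, and in each of the 4 the names belong to a single family: methionine aminopeptidases, histone 3.1, histone 3.3, and acyl-activating enzymes. The 10 rows were picked for their names after their values had been seen. No family class held 3 or more rows.

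The share of rows that met the conditions was 12% among the 692 rows with several genes and no 0, before the 5 were left out. It was 12.3% among 545 rows with a single gene and 13.2% among all 2680 rows without a 0. The mirror conditions, a ratio of at most 1 over 1.5 and a lower treated value in every pair, were met by 14.2% of the 692 rows. Rows with several genes thus met the conditions about as often as the rest of the table, and the number of such rows is not particular to them.

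Over the 78 rows the ratio of means ran between 1.5 and 4.40 with a median of 1.94. It was under 2 in 45 rows, at least 2 in 33 and at least 3 in 9. Most rows were dim: the mean water intensity was under 0.5 in 54 rows, between 0.5 and 2 in 22 and above that in 2. The median of the group means was 0.726 in treated samples and 0.360 in water samples, against 0.538 in treated and 0.559 in water samples over all 692 rows. In 48 of the 78 rows every treated array lay above every water array, and in 30 the groups overlapped. Such a separation was found in 8.38% of the 692 rows and 8.96% of all rows without a 0, and the conditions above favour it, so nothing is read from the 48.

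**Figure D1:**
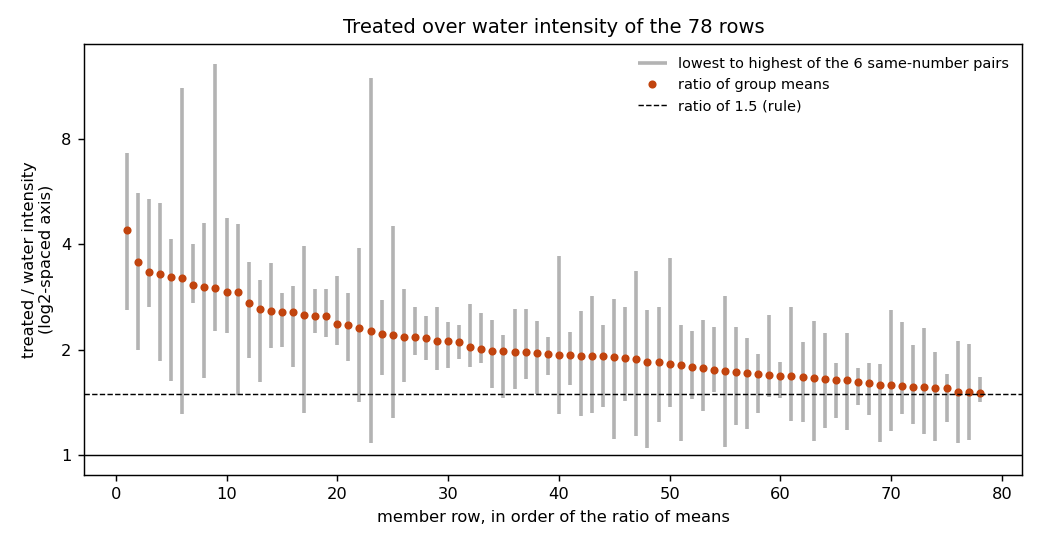
Treated over water intensity (log2-spaced axis) of the 78 rows in order of the ratio of group means: points are ratios of means of 6 treated and 6 water arrays, grey bars run from the lowest to the highest of the 6 same-number pairs, and the dashed line is the ratio of 1.5 in the rule. The points lie between 1.5 and 4.40, and the bars of a few rows, up to a pair ratio of 13.1, reach far above their points.

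Chromatin and chromosome proteins account for 3 of the rows with names. Histone H3 is a core protein around which DNA is wound; the H3.1 form is built into chromatin when DNA is copied, and the H3.3 form also outside of DNA copying. The row for histone 3.1, AT5G10400/AT5G10390, had intensities between 0.430 and 0.667 with a median of 0.484 in treated samples, against 0.260 to 0.312 with a median of 0.295 in water samples. Its means were 0.510 ± 0.0854 in treated and 0.292 ± 0.0176 in water samples (SD, n = 6 each), a ratio of 1.75. The groups did not overlap, and every pair was at least 1.52 times higher in treated plants. These genes are neighbours on their chromosome and histone genes are near-identical copies, so the copy measured is uncertain.

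The row for histone 3.3, AT5G10980/AT4G40040/AT4G40030, had 0.936 to 1.39 with a median of 1.27 in treated samples and 0.574 to 1.02 with a median of 0.686 in water samples. Its ratio of means was 1.57, and the highest water array lay above the lowest treated array. The pair ratio was lowest in replicate 2 at 1.32 and highest in replicate 3 at 2.40.

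There were 4 other histone H3 rows. Of these, 2 list several genes and had not met the conditions, so for them a lack of a higher level was partly fixed by the choice of rows, and 2 list a single gene. They were tested with limma on quantile-normalized log2 intensities, with Benjamini-Hochberg adjustment over all 3439 rows; a row was called at an adjusted p under 0.05, which 32.9% of all rows passed, 16.7% higher and 16.2% lower. Of the 870 rows with several genes, 29.9% passed, 16.4% higher and 13.4% lower. The row of AT1G09200 alone, another histone 3.1 gene, had 0.315 to 0.507 with a median of 0.374 in treated samples and 0.547 to 0.622 with a median of 0.581 in water samples. It fell by 0.49 ± 0.140 on the log2 scale (SE, adjusted p = 0.0201), with lower treated values in all 6 pairs. It stayed called in 17 of 18 other settings. With arrays of adjacent number averaged to 3 against 3, it was not called (limma adjusted p = 0.134). The row of AT5G65360 alone, also histone 3.1, averaged 0.371 ± 0.102 in treated and 0.496 ± 0.0688 in water samples, with a limma adjusted p of 0.190. The row of HTR12, the centromeric histone H3, and MGH3, a histone H3 of male gametes, averaged 0.572 ± 0.0479 in treated and 0.743 ± 0.0640 in water samples, with a limma adjusted p of 0.0822. Its treated value was lower in all 6 pairs. It stayed not called in 13 of 18 other settings, among them array medians made equal (limma adjusted p = 0.193). In the other 5 it was called lower. Among these were the fit with replicate numbers blocked (limma adjusted p = 0.0301) and the intensities as deposited (limma adjusted p = 0.00347). As deposited, 654 rows of the whole table were called lower and 421 higher. A second row listing the histone 3.3 genes AT5G10980 and AT4G40030 averaged 0.456 ± 0.155 in treated and 0.403 ± 0.0651 in water samples, with a limma adjusted p of 0.244. On quantile-normalized intensities and without the block, 1 of these 4 rows was called lower and none higher. Of the 4, 3 hold other genes of the family and 1 shares 2 of its genes with the histone 3.3 row.

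BUB3 is known from yeast as a protein of the checkpoint that delays chromosome separation until all chromosomes are attached to the spindle. The row AT1G69400/BUB3.2/BUB3.1 had 0.583 to 1.19 with a median of 0.852 in treated samples and 0.268 to 0.413 with a median of 0.363 in water samples. Its ratio of means was 2.49 with no overlap of the groups. Its pair ratios lay between 2.18 in replicate 5 and 2.98 in replicate 4.

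Gene regulation and protein maturation are represented by 1 row each. BZIP61 and BZIP34 are basic leucine zipper transcription factors, which bind DNA as dimers. Their row, AT5G07160/AT5G04840/BZIP61/BZIP34, had 0.186 to 0.486 with a median of 0.334 in treated samples and 0.0433 to 0.149 with a median of 0.0886 in water samples. At a ratio of 3.57 it stood second among the 78 rows, and the groups did not overlap. A separate row listing BZIP61 and BZIP34 without the other genes averaged 0.196 ± 0.0340 in treated and 0.143 ± 0.0672 in water samples, with a limma adjusted p of 0.355. The row MAP1C/MAP1D/MAP1B/MAP1A lists methionine aminopeptidases, which remove the first methionine of new proteins in the cytosol and in organelles. It had 0.264 to 0.611 with a median of 0.450 in treated samples and 0.125 to 0.250 with a median of 0.228 in water samples, a ratio of 2.11 without overlap. A second row listing MAP1C and MAP1B was at 0 on 11 of the 12 arrays and gave no comparison.

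Plastid lipid genes were listed by 2 rows. AAE15 and AAE16 are acyl-activating enzymes, which prepare fatty acids for use in the plastid. The row AAE15/AAE16 had 0.617 to 0.885 with a median of 0.699 in treated samples and 0.256 to 0.531 with a median of 0.481 in water samples. Its ratio was 1.68 without overlap, and its pairs spread between 1.25 in replicate 4 and 2.64 in replicate 1. Fibrillins, also called plastoglobulins, coat the lipid droplets of plastids. The fibrillin row, AT5G09820/AT4G22240/FIB/AT2G35490, had 1.48 to 2.61 with a median of 2.04 in treated samples and 1.08 to 1.48 with a median of 1.26 in water samples. Its ratio was 1.66, and the groups touched, with the lowest treated and the highest water array both at 1.48. The pair ratio was as low as 1.10 in replicate 6. Of 3 further rows that list a gene of this row, none was called: the limma adjusted p was 0.391 for AT4G22240/FIB/AT2G46910, 0.468 for AT2G35490 alone and 0.507 for AT5G09820 alone. AT4G22240/FIB/AT2G46910 was higher in 5 of 6 pairs, and its log2 difference of 0.33 became 0.57 without treated replicate 2, when it was called higher (limma adjusted p = 0.0117). In the other 17 of 18 settings it stayed not called.

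Of the rows with names, 3 remain, of which 2 share a name stem and not a stated family. SETH2 is an enzyme of the synthesis of the glycolipid anchors that hold proteins on the cell surface, and is needed for pollen tube growth. The row AT1G73160/AT4G19460/SETH2 had 2.17 to 3.61 with a median of 2.93 in treated samples and 0.80 to 1.78 with a median of 0.955 in water samples, a ratio of 2.58 without overlap. The row AT1G03010/SETH6 had 0.321 to 0.818 with a median of 0.487 in treated samples and 0.174 to 0.216 with a median of 0.183 in water samples, a ratio of 2.92 without overlap. Its water values were close together, whereas its pair ratios ran between 1.49 in replicate 3 and 4.56 in replicate 5. The row AT4G32640/CEF had 0.121 to 0.531 with a median of 0.306 in treated samples and 0.0821 to 0.199 with a median of 0.129 in water samples. Its ratio was 2.51, and its groups overlapped.

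**Figure D2:**
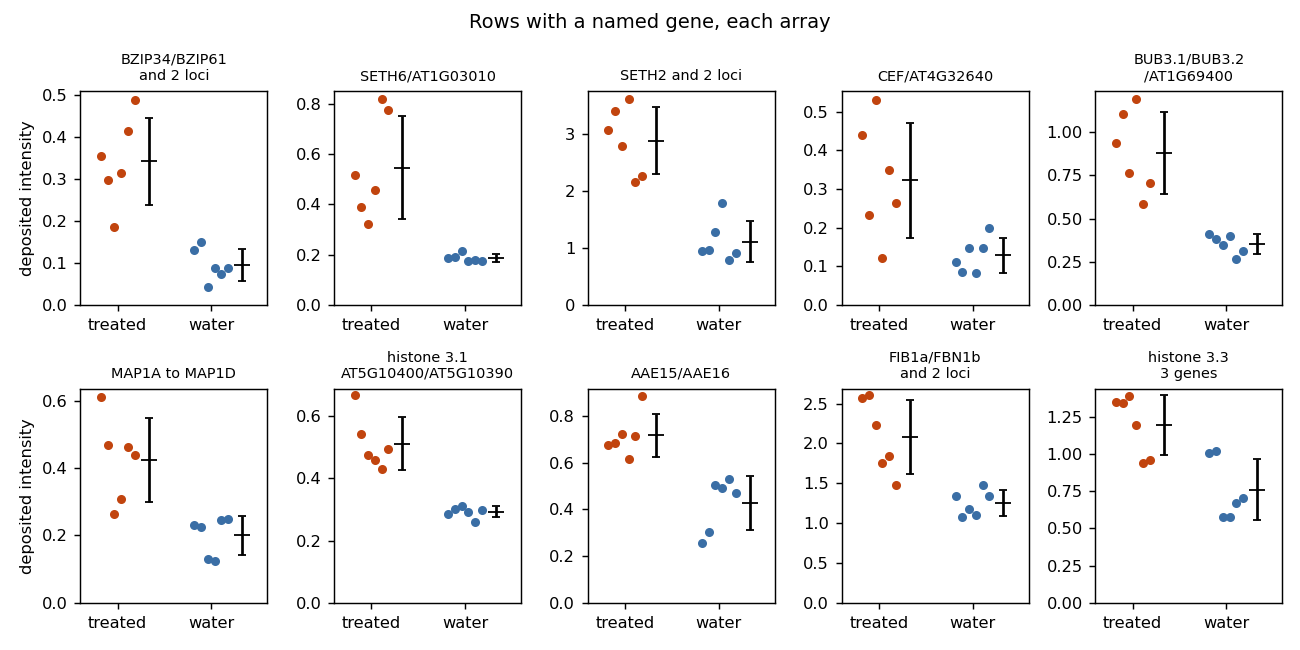
Deposited intensity on each of the 6 treated arrays (left in each panel) and 6 water arrays (right) for the 10 rows with a named gene, each panel on its own axis from 0, with replicates 1 to 6 left to right and black marks for mean ± SD. In 7 of the 10 rows every treated array lies above every water array, against 8.38% of the 692 rows with several genes and no 0. The conditions favour such a separation. The histone 3.3, fibrillin and AT4G32640/CEF rows overlap.

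The highest ratios belonged mostly to rows whose genes have locus tags only, and 68 of all 78 rows are of this kind. The highest of all was that of AT5G40700/AT3G27350, which had 0.121 to 0.290 with a median of 0.204 in treated samples and 0.0224 to 0.0764 with a median of 0.0434 in water samples. Its ratio was 4.40, its groups did not overlap, and it also had the lowest water mean of the 78 rows, 0.0468 ± 0.0224 (SD, n = 6). A ratio over so small a mean moves with small differences in intensity.

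AT1G80040/AT5G32440/AT5G02510 had 0.158 to 0.389 with a median of 0.264 in treated samples and 0.0579 to 0.0987 with a median of 0.0825 in water samples, a ratio of 3.33. AT1G11520/AT4G21660 had 0.592 to 1.86 with a median of 1.10 in treated samples and 0.265 to 0.463 with a median of 0.333 in water samples, a ratio of 3.29. AT1G70990/AT1G23040/AT1G02405 had 1.27 to 2.29 with a median of 2.10 in treated samples and 0.525 to 0.781 with a median of 0.561 in water samples, a ratio of 3.23. None of these 3 rows overlapped between groups. AT2G31100/AT2G19940 had 1.09 to 1.48 with a median of 1.35 in treated samples and 0.340 to 0.534 with a median of 0.409 in water samples, a ratio of 3.06. Its pairs stayed between 2.71 and 4.00, so every pair was far above the 1.5 of the rule, and its groups did not overlap.

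Others of the highest ratios leaned on single arrays or overlapped. AT1G35510/AT1G14970/AT2G01480 had 0.460 to 5.37 with a median of 0.620 in treated samples and 0.312 to 0.545 with a median of 0.430 in water samples, a ratio of 3.2. The value of 5.37 is treated replicate 3; without number 3 the ratio was 1.41, and the groups overlapped. No other row of the 78 moved by more than 1.22 times when a number was left out. Still, 8 of the 78 rows, AT1G35510/AT1G14970/AT2G01480 among them, fell under the ratio of 1.5 without some number. AT1G78230/AT5G22320/AT4G03260 had 0.533 to 0.841 with a median of 0.694 in treated samples and 0.0516 to 0.295 with a median of 0.258 in water samples, a ratio of 3.01. Its low water value, in replicate 2, gave a pair ratio of 13.1, while its lowest pair stood at 2.26. AT4G31040/AT4G31030, 2 overlapping genes, had 0.0838 to 0.419 with a median of 0.255 in treated samples and 0.0358 to 0.111 with a median of 0.0901 in water samples, a ratio of 3.03 with overlap. AT1G16630/AT2G16270 had 0.146 to 0.698 with a median of 0.537 in treated samples and 0.0428 to 0.302 with a median of 0.157 in water samples, a ratio of 2.92. Treated replicate 4 and its partner were both low, so the groups overlapped while every pair was at least 2.24.

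The 5 rows with the highest water means, the fibrillin row among them, had ratios between 1.5 and 2.11, against the median of 1.94 over the 78. AT4G24026/AT4G10810 had the highest intensities, 20.2 to 25.4 with a median of 24.3 in treated samples and 8.41 to 14.2 with a median of 10.9 in water samples. Its ratio was 2.11 and its groups lay well apart. AT4G22030/AT4G04480 had 9.45 to 15.1 with a median of 14.0 in treated samples and 5.89 to 7.55 with a median of 6.35 in water samples, a ratio of 1.96 without overlap. AT3G24860/AT2G44730 had 1.93 to 5.72 with a median of 3.68 in treated samples and 0.858 to 2.56 with a median of 2.15 in water samples, a ratio of 1.93 with overlap. AT2G41415/AT3G10190/AT2G41410 had 1.89 to 2.94 with a median of 2.28 in treated samples and 1.13 to 1.92 with a median of 1.56 in water samples, a ratio of 1.5 with overlap.

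The other 55 rows, none with a named gene, had ratios between 1.51 and 2.72. Their group means lay between 0.171 and 2.59 in treated and between 0.0758 and 1.12 in water samples. In 33 of the 55 the groups did not overlap, against 8.38% of the 692 rows with several genes and no 0. The conditions favour this, so nothing is read from the 33.

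The rule left the size of the ratio free to vary between replicates. By same-number pair, the median ratio of the 78 rows was 2.11, 2.03, 1.85, 1.92, 1.98 and 2.12 for replicates 1 to 6, and that of the 692 rows was 0.957, 0.951, 0.920, 0.884, 1.04 and 1.01. The smallest of a row's 6 pair ratios was that of replicate 3 in 22 of the 78 rows and the largest that of replicate 1 in 18. The lowest pair ratio was under 1.2 in 16 rows and at least 2 in 10.

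The ratio was also taken within arrays of adjacent number, as replicates 1 and 2, 3 and 4, and 5 and 6. The medians over the 78 rows were 2.09, 1.84 and 2.05, against 0.946, 0.914 and 1.03 over the 692 rows. The ratio was highest in replicates 1 and 2 in 32 rows, in replicates 3 and 4 in 15, and in replicates 5 and 6 in 31. Within a row the highest of the 3 values was a median of 1.51 times the lowest; it was under 1.2 times in 16 rows and over 2 times in 10. AT2G41415/AT3G10190/AT2G41410 was the most even at 1.48, 1.5 and 1.53. AT1G11520/AT4G21660 was uneven at 5.10, 2.02 and 2.73, and AT5G07160/AT5G04840/BZIP61/BZIP34 at 2.32, 3.80 and 5.52.

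**Figure D3:**
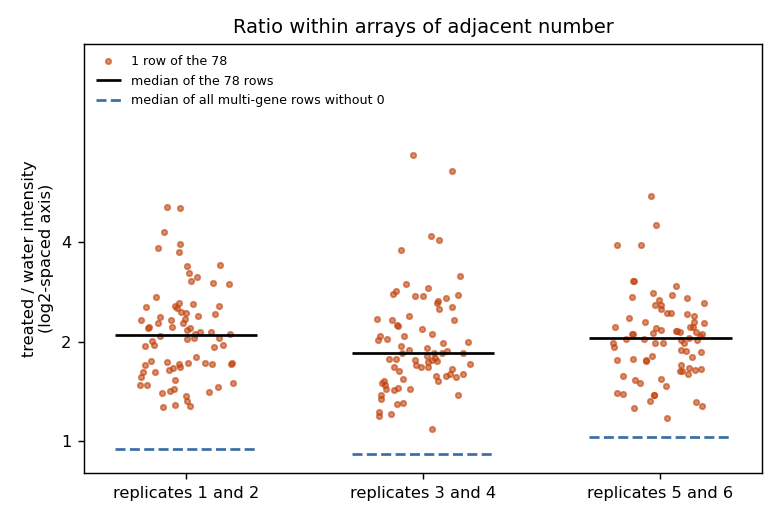
Treated over water intensity (log2-spaced axis) of each of the 78 rows within replicates 1 and 2, 3 and 4, and 5 and 6, with black lines at the medians of the 78 rows and dashed lines at those of the 692 rows with several genes and no 0. The medians of the 78 rows are 2.09, 1.84 and 2.05 and those of the 692 rows 0.946, 0.914 and 1.03; the highest point, 7.38 in replicates 3 and 4, is AT1G35510/AT1G14970/AT2G01480.

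The rows were also described by the genes they list, beside all 692 rows. Of the 78 rows, 56 (71.8%) list 2 genes, 15 (19.2%) list 3 and 7 (8.97%) list 4 or more, against 74.4%, 20.7% and 4.91% of the 692. The genes lie on more than 1 chromosome in 57 rows (73.1%, against 71.5%). At least 2 listed genes are neighbours in 13 rows (16.7%, against 12.1%), and 2 overlap in 2 rows (2.56%, against 1.01%). A gene with a name stands on 10 rows (12.8%, against 18.1%). These shares were not tested.

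The 13 rows with neighbouring genes had ratios between 1.5 and 3.03 with a median of 2.04, against a median of 1.93 in the rest of the 78. Among them AT2G25330/AT2G25320 had 0.281 to 0.495 with a median of 0.478 in treated samples and 0.148 to 0.189 with a median of 0.165 in water samples, a ratio of 2.61 without overlap. AT2G43865/AT3G59850/AT2G43870/AT2G43860 had 1.79 to 2.17 with a median of 2.04 in treated samples and 0.595 to 1.48 with a median of 1.22 in water samples, a ratio of 1.82 without overlap.

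Other rows of the table list some of the same genes. Of the 78 rows, 29 share a gene with at least 1 other row, and 33 such rows exist. Of the 33, 28 list several genes and were themselves judged by the rule without meeting it, and 5 list a single gene and were not judged by it. None of the 78 shares a gene with another of the 78 (0 rows) or with the 5 rows left out (0 rows), so the 33 are all the rows that share a gene. By limma 2 of the 33 were called higher, 4 lower and 27 were not called, and 8 had an unadjusted p under 0.05. Their median log2 difference was 0.00, which is the value of the rows at 0 on all 12 arrays. It was 0.12 over the 31 rows above 0 on an array. The median over all 3439 rows was also 0.00, and 123 of those rows were at 0 on all 12 arrays. Over the 20 of the 33 with no 0 on any array, the median log2 difference in the limma fit was 0.17, on quantile-normalized values. The 17 of the 78 rows they share genes with had a median log2 ratio of 1.04, which the rule set. That ratio was of mean deposited intensities, so these values are of unlike measures. Among the 33 rows, 13 had a 0 on an array and 2 of these were at 0 on all 12. The counts of the 33 are therefore not set against the shares of all rows. Of the 20 with no 0, 2 were called higher and 4 lower. Of the 692 rows with several genes and no 0, 138 were called higher and 112 lower. Those 692 include the 83 rows that met the conditions, which the 20 leave out. The 20 also include the 5 single-gene rows, which the 692 do not. A lack of higher calls among the 20 was thus partly fixed by the choice of rows. With so few rows, no direction is read from the 20. With the arrays of adjacent number averaged to 3 against 3, none of the 33 was called by limma, and 5 had an unadjusted p under 0.05.

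The rows called higher both list the same genes as one of the 78. The second row of AT1G02890/AT4G02480 had 0.137 to 0.404 with a median of 0.190 in treated samples and 0.121 to 0.166 with a median of 0.153 in water samples. It rose by 0.75 ± 0.185 on the log2 scale (SE, limma adjusted p = 0.00908), in 5 of 6 pairs. The row among the 78 with these genes had 0.207 to 1.39 with a median of 0.659 in treated samples and 0.185 to 0.752 with a median of 0.512 in water samples. The second row of AT4G22030/AT4G04480 averaged 0.927 ± 0.200 in treated and 0.654 ± 0.256 in water samples. It rose by 0.65 ± 0.226 (limma adjusted p = 0.0460), in 5 of 6 pairs. The call was lost in 13 of 18 other settings, among them the replicate block (limma adjusted p = 0.0700). A second row of AT1G16630/AT2G16270 averaged 1.17 ± 0.147 in treated and 1.15 ± 0.210 in water samples, with a limma adjusted p of 0.591, whereas the row among the 78 had a ratio of 2.92. In all, 15 of the 33 rows repeat the full gene list of one of the 78, and 10 of the 15 had a 0 on an array.

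Rows that fell share only some of their genes with one of the 78. The row of AT5G19210 alone had 0.133 to 0.294 with a median of 0.183 in treated samples and 0.539 to 0.734 with a median of 0.637 in water samples. It fell by 1.74 ± 0.306 on the log2 scale (limma adjusted p = 0.00132), in all 6 pairs, whereas the row AT5G19210/AT3G58510/AT2G42520 had 0.183 to 0.394 with a median of 0.297 in treated and 0.127 to 0.203 with a median of 0.168 in water samples. The row of AT1G35510 alone averaged 0.390 ± 0.134 in treated and 0.696 ± 0.178 in water samples and fell by 0.74 ± 0.208 (limma adjusted p = 0.0179), in all 6 pairs. The row of the 78 that lists AT1G35510 is the one whose ratio rests on treated replicate 3. AT1G80870/AT5G51770/AT4G25390 averaged 0.227 ± 0.0637 in treated and 0.433 ± 0.0682 in water samples and fell by 0.92 ± 0.234 (limma adjusted p = 0.0114), in all 6 pairs. The row AT5G51770/AT4G25390/AT2G45590, which shares 2 of those genes, averaged 2.59 ± 0.651 in treated and 1.01 ± 0.165 in water samples, without overlap.

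The row of AT2G46220 alone had 3.51 to 12.5 with a median of 5.40 in treated samples and 8.85 to 12.4 with a median of 9.72 in water samples. It fell by 0.74 ± 0.241 (limma adjusted p = 0.0352), with 2 of 6 pairs higher in treated plants. Those were the adjacent replicates 1 and 2, at 12.2 and 12.5 in treated against 10.2 and 10.3 in water samples. The call was lost in 12 of 18 other settings, among them the replicate block (limma adjusted p = 0.0990). The row AT1G79510/AT1G16320/AT2G46220 had 0.382 to 0.974 with a median of 0.611 in treated samples and 0.232 to 0.421 with a median of 0.345 in water samples. Of the 5 single-gene rows, 3 were called lower and none higher. Over all 3439 rows 16.2% were called lower and 16.7% higher, and the shares over all single-gene rows were not taken. None of the 3 was called on means of adjacent-number arrays. With 5 rows, nothing is read from this about single-gene rows. AT5G22400/AT3G11490, with 1 array at 0, averaged 0.321 ± 0.215 in treated and 0.961 ± 0.479 in water samples, with a limma adjusted p of 0.0887. Its treated value was lower in all 6 pairs. It was called lower with the replicate block (limma adjusted p = 0.0231) and with a floor at the 10th percentile (limma adjusted p = 0.0356). That row stayed not called in 15 other settings. AT5G24870/AT5G10700/AT5G10680/AT5G10660/AT5G10650 averaged 0.417 ± 0.118 in treated and 0.575 ± 0.0947 in water samples, with a limma adjusted p of 0.155. It stayed not called in 17 of 18 other settings, and was called lower only without treated replicate 3 (limma adjusted p = 0.0344).

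**Figure D4:**
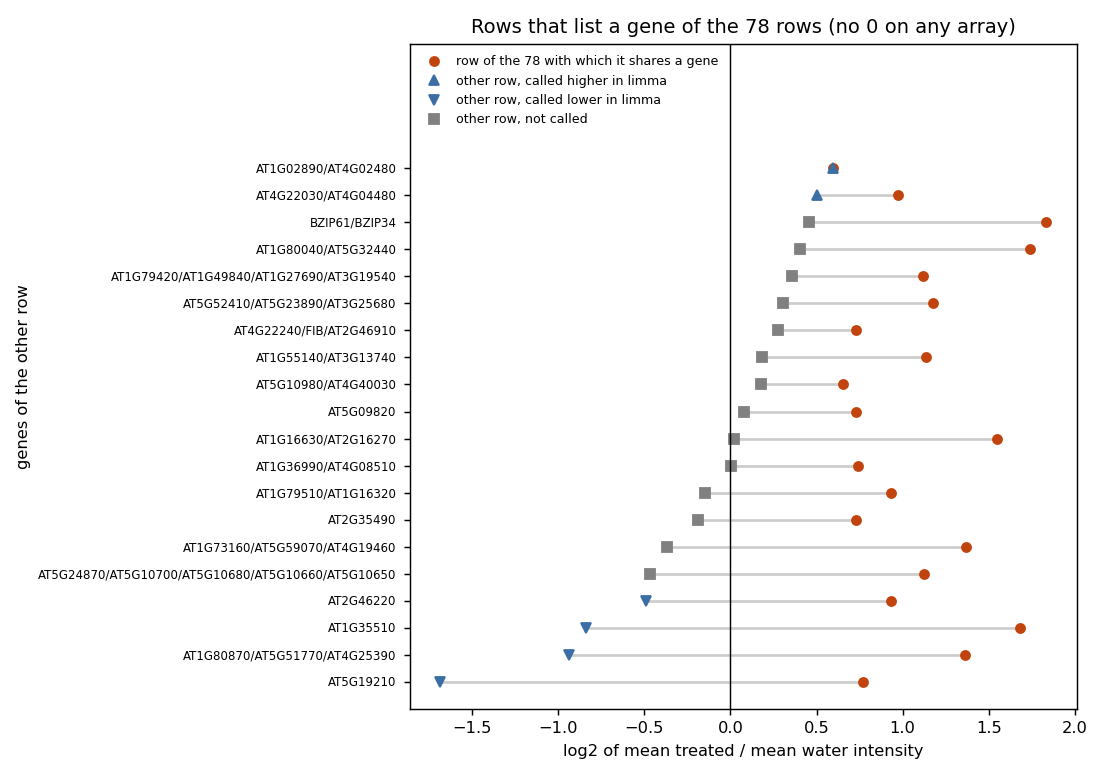
Log2 of mean treated over mean water intensity for the 20 rows without a 0 that share a gene with one of the 78 rows, drawn beside the row of the 78 with which it shares a gene; symbols mark rows called higher, lower or not called by limma. The rows of the 78 all lie above 0 by the rule, and of the 20 other rows 2 were called higher and 4 lower. Of the 692 rows with several genes and no 0, 138 were called higher and 112 lower. The 692 include the 83 rows that met the conditions and the 20 do not, so these counts are not of like rows.

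The ratio of 1.5 divides rows of like values. Just inside it lay AT2G41415/AT3G10190/AT2G41410 at 1.5, AT5G04550/AT3G23160 and AT1G02890/AT4G02480 at 1.51, AT1G08340/AT5G22400/AT4G03100/AT3G11490 at 1.55 and AT5G44230/AT5G08510 at 1.56. Just outside lay AT5G05360/AT2G38450, AT5G55210/AT4G22320 and AT3G47250/AT3G47200 at 1.49, AT3G57590/AT3G57580/AT3G56890 at 1.48 and AT5G26600/LCD at 1.46.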

How the data were processed

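The authors deposited 1 linear intensity per row and array for 3439 rows. Scanning, background correction, scaling and the meaning of a 0 are not given in the sources used here. Groups and replicate numbers came from the sample titles. Rows were matched to genes through the platform annotation, which lists no gene for 1877 rows, and to names and neighbours through RefSeq (TAIR10.1). No sequence was analysed here.

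Ratios, means and SDs used the deposited intensities. For rows outside the 78 and for counts over the table, each 0 was replaced by 0.0157, the 1st percentile of positive intensities. The deposited values were then taken to log2, quantile-normalized and fitted in limma 3.58.1 under R 4.3.3, with group as the only term. Log2 differences are treated minus water. Benjamini-Hochberg adjustment ran over 3439 rows. Figures used matplotlib 3.10.9 in Python 3.11.15.

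The rows, lists, tests and alternatives were chosen with earlier results of these data known. Named were the 10 highest ratios, the 5 highest water means, the 5 highest lowest-pair ratios, 5 rows on each side of the ratio limit, up to 10 related rows called and 5 not called. The rows with a gene name, further histone, BZIP, MAP1 and fibrillin rows, the neighbouring-gene examples and the rows of the 78 set beside a related row were added after their values were seen.

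Same-numbered arrays were taken as pairs by the rule. Same-numbered arrays of both groups deviated together from their group means (correlations 0.302 to 0.425, each over 0.1). No correlation was taken between unlike numbers, so these values cannot tell pairs of equal number from larger sets of arrays. Arrays of adjacent number had like medians: 0.437 and 0.431, 0.355 and 0.351, and 0.486 and 0.483 in treated replicates 1 to 6. In water replicates 1 to 6 they were 0.470 and 0.475, 0.408 and 0.405, and 0.477 and 0.485. The 6 arrays of a group may thus not be 6 independent units. The main limma fit did not use the pairs. What the numbers mean is not said in the labels. No 2 arrays held equal values.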

Additional observations from a re-analysis of the deposited data

Results flagged for a closer look

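In 70 groups of 6 arrays examined, 5 had 1 array far from the others by Dixon's test, and chance flags about 5% of groups. In AT1G35510/AT1G14970/AT2G01480, treated replicate 3 was at 5.37, with the other treated arrays between 0.460 and 0.831. In AT1G70990/AT1G23040/AT1G02405, water replicate 6 was at 0.781, with the others between 0.525 and 0.620. In AT1G78230/AT5G22320/AT4G03260, water replicate 2 was at 0.0516, with the others between 0.223 and 0.295. In AT1G16630/AT2G16270, treated replicate 4 was at 0.146, with the others between 0.503 and 0.698. In AT1G80870/AT5G51770/AT4G25390, which is not among the 78 rows, treated replicate 1 was at 0.104, with the others between 0.216 and 0.277.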

How the results depend on the processing

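The conditions were met by 94 rows with array medians made equal, 100 after quantile normalization and 74 with medians in place of means, of which 78, 77 and 68 were among the 78. A ratio of at least 2 left 33 and groups without overlap 48, both stricter by construction. Leaving out a number gave 77 to 92 rows, of which 74 to 77 were among the 78. This asks for fewer higher pairs and is looser in that respect by construction. Over the table limma called 1131 rows, 418 on means of adjacent-number arrays and 1010 to 1158 with an array left out; as deposited, 421 were higher and 654 lower, against 573 and 558. Of the 33 rows sharing a gene, 6 were called, 3 as deposited (all lower), 0 on means of adjacent-number arrays and 4 to 8 with an array left out. Their median log2 difference was 0.00, the value of rows at 0 on all arrays. It became 0.10 with array medians equal, 0.15 over rows above 0, and lay between 0.00 and 0.15 with an array left out. With the replicate number as a block, in the paired fit, limma called 1252 rows and 5 of the 33. The paired fit lost the calls of AT2G46220 (adjusted p = 0.0990) and AT4G22030/AT4G04480 (adjusted p = 0.0700), and called HTR12/MGH3 (0.0301) and AT5G22400/AT3G11490 (0.0231). The second AT1G02890/AT4G02480 row was not called as deposited (adjusted p = 0.135) or with a floor at the 10th percentile (0.0828). For the 7 named rows called, the adjusted p on means of adjacent-number arrays was 0.0690 to 0.233. No named row reversed under the alternatives run. The cause of these shifts was not tested. Signal over background is unknown, which limits the dim rows most.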

Other observations

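Over the whole table, 54 pairs of rows list the same genes and have no 0 on any array. Both rows of a pair differed in the same direction between treated and water samples in 33 of the 54. The log2 ratios of the rows of a pair correlated at r = 0.22 across these 54 pairs, which share arrays and are not independent, and differed by a median of 0.43 on the log2 scale. Rows with an identical gene list thus often gave different values in this table. The 78 rows had a median coefficient of variation of 22.1% in treated and 19.1% in water samples, against 25.5% and 17.6% over the 692 rows with several genes and no 0.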
